A study of Homo sapiens with 3 samples.

Results

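The lysosome genes described here are the degradative enzymes, the membrane proteins, the proton pump and the transcription factors of this organelle, as counted by RNA-seq in PANC-1 cells. Members were the rows of the count table whose gene symbol stood in a list of 32 lysosome genes or began with ATP6V0 or ATP6V1, the names of proton pump subunits. Names of pseudogenes and antisense RNAs, 18 in all, were dropped. This gave 55 members among 51136 genes, 32 by symbol and 23 by the proton pump name. They comprised 3 transcription factors of the MiT/TFE family, 5 membrane proteins, 8 cathepsins and other peptidases, 9 glycosidases and 4 sulfatases. The others were 3 proteins that are lipid-degradation cofactors or a thioesterase, and 14 names of the V1 and 9 of the V0 sector of the pump. PANC-1 is an established human cell line from a carcinoma of the pancreatic duct. The control library came from cells given no agent, the Rg3 library from cells given 200 μM ginsenoside Rg3, a saponin of ginseng, for 24 h, and the TAM library from cells given 50 μM tamoxifen for 24 h. Tamoxifen is an estrogen receptor modulator and an amine of the kind that gathers in acidic lysosomes. The cells of all 3 libraries grew in DMEM with fetal calf serum, and a vehicle given to the control cells is not named in the sources used here. There was 1 library per condition, so no difference below has a replicate check, no p-value is given, and each comparison is one between libraries.

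Lysosomes break down proteins, glycans, glycolipids and sulfated sugars by hydrolases that work at acid pH. The acid is made by the vacuolar H+-ATPase, whose cytosolic V1 sector splits ATP and whose membrane sector, V0, passes protons into the lumen. TFEB, TFE3 and MITF are related factors that bind the E-box within the CLEAR element, a short palindrome found before many lysosome genes. When the kinase complex mTORC1 is active on the lysosome surface it keeps TFEB in the cytosol through phosphorylation, and when mTORC1 is inactive TFEB enters the nucleus. This control acts on protein location, which counts of RNA do not measure.

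The libraries held 11300766 counts on genes in the control, 12861693 with Rg3 and 11321442 with TAM, with TMM scaling factors of 1.02, 1.12 and 0.879. Comparisons were limited to genes with 10 counts or more in 1 of the libraries compared, which held for 51 of the 55 members, and a gene was called higher or lower past a fold of 1.5. Intervals in parentheses are exact 95% counting intervals (Clopper-Pearson) of a log2 fold change and cover counting error only. Fold changes of all genes followed the GC content of their transcripts, and values past 1.5-fold are therefore also given after a smooth trend on GC content and length of the longest annotated transcript was removed, called trend-removed below. Scaling by library totals instead of TMM moved every log2 fold change by 0.14 for Rg3 against control, by -0.21 for TAM against control and by -0.35 for TAM against Rg3. Of the epithelial markers 7 of 7 were above 3 counts in every library, with 27707 summed counts in control, 15757 with Rg3 and 28246 with TAM, although the defining EPCAM (26, 26 and 8 counts) and CDH1 (76, 39 and 5) were low. Macrophage and other myeloid markers, cells rich in lysosomes, summed to 109, 56 and 45 counts, mostly from CD14 (97, 46 and 37), with LYZ and AIF1 at 0 and PTPRC at 0, 0 and 1. Fibroblast markers summed to 2142, 1162 and 934 counts, mostly COL1A1, with DCN and PDGFRA at 1 count or less, and 5 of 5 acinar markers were at 0. The labels name PANC-1 cells alone in all 3 libraries, so these counts are not read as other cell types. In bulk RNA, fewer cells with a marker and less of its RNA per cell cannot be told apart.

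Levels of the members were set per length, as TMM-scaled RPKM (reads per kilobase of the principal transcript, scaled to library size), and spanned several orders of magnitude. PSAP, which encodes the precursor of the saposins that present sphingolipids to their hydrolases, had the highest level in each library, 976 in control, 782 with Rg3 and 929 with TAM. Next came CTSD, the aspartic protease cathepsin D, with levels of 416, 236 and 709, and CD63, a tetraspanin of late endosomes and lysosomes, with 257, 221 and 460. Among pump subunits compared the levels ran from 0.583 in control for ATP6V0A4 to 187 for ATP6V1F, leaving aside ATP6V1G2 at 0.494 from 9 counts. PSAP alone gave 32187 of the 91512 counts on members in the control library. The members together took 0.81% of all counts in control, 0.754% with Rg3 and 0.85% with TAM. Under 10 counts in every library were ATP6V1B1 (0, 0 and 2 counts), ATP6V1C2, ATP6V1G3 and ATP6V0D2, which had 0 counts in all 3. These encode subunit forms known mainly from kidney, bone and other specialised tissues, and a count of 0 allows up to 3 counts in each library.

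**Figure D1:**
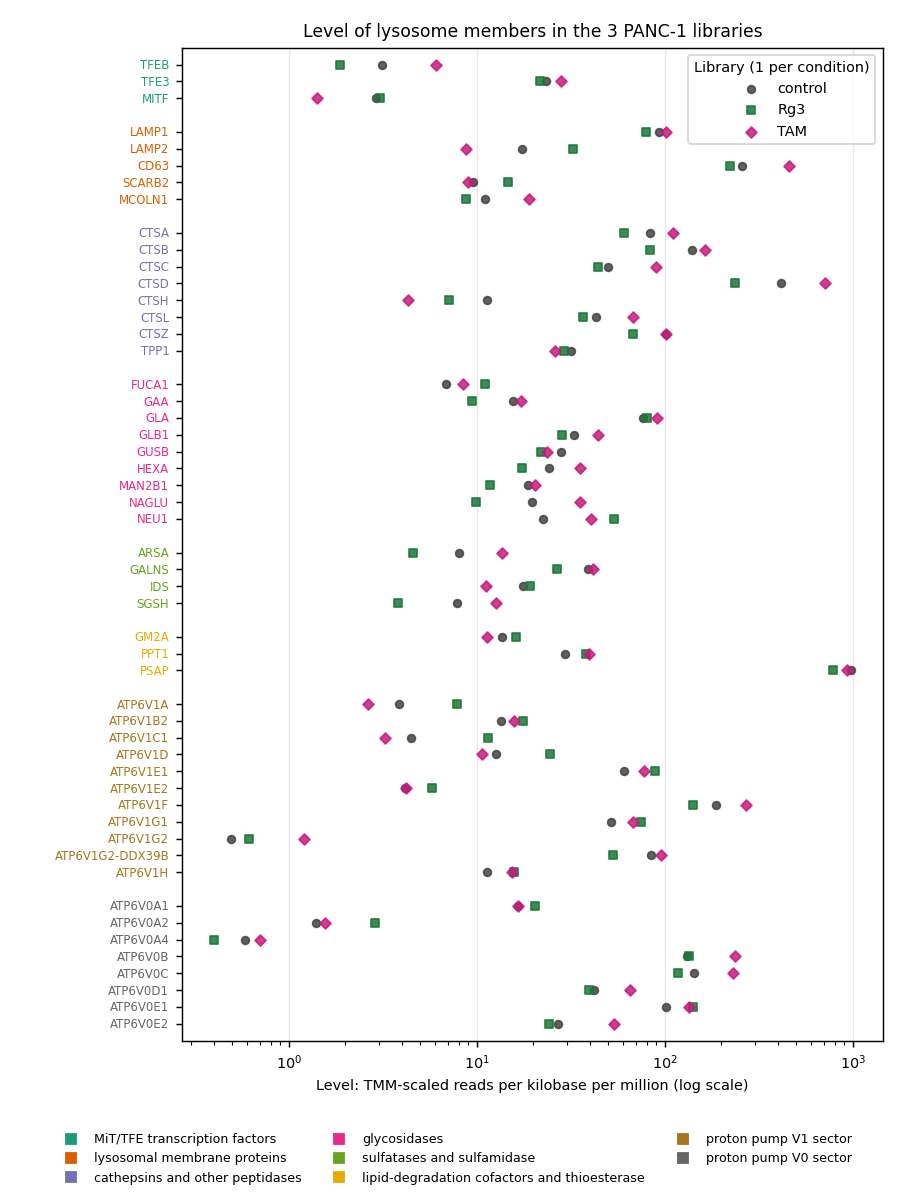
Level of the 51 members with at least 10 counts in some library, in TMM-scaled RPKM over the principal transcript on a log axis, with 1 point per library (control, Rg3, TAM) and gene names coloured by role. PSAP lies at the right in all 3 libraries, from 782 to 976, and LAMP2 and CTSD are among the genes whose Rg3 and TAM points lie on opposite sides of the control point.

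Promoter windows of RefSeq (GRCh38.p14, from 250 bases before to 50 after a start site, 300 bases) were found for 41 of the 55 members. The 14 not matched were ARSA, ATP6V0D2, ATP6V0E1, ATP6V1A, ATP6V1B2, ATP6V1C1, ATP6V1E2, ATP6V1H, CTSB, HEXA, LAMP2, NAGLU, PSAP and SGSH. The core of the CLEAR element, TCACGTGA, stood in 7 of 59 member windows (11.9%), against 0.98% of all 35116 windows and 1.63% of the windows of genes with at least 10 counts in some library. The shorter E-box CACGTG, which lies within the CLEAR core, stood in 13 of 59 (22%), against 7.26% of all windows and 9.33% of the windows of genes with at least 10 counts. Both motifs are palindromes and so read the same on both strands. A stretch around 1 CLEAR core of each of the 7 genes is shown, 5′ to 3′ on the gene's strand, because these are the members that carry the motif the MiT/TFE factors are known to bind, with the core in capitals.
LAMP1 promoter, chr13:113297190-113297237, plus strand: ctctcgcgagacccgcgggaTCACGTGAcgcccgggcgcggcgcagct
MCOLN1 promoter, chr19:7522562-7522609, plus strand: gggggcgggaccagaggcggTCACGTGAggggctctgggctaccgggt
CTSA promoter, chr20:45891289-45891334, plus strand: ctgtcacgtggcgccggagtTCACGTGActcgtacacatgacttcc
GAA promoter, chr17:80101484-80101531, plus strand: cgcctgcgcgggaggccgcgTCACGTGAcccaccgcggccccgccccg
GALNS promoter, chr16:88857095-88857142, minus strand: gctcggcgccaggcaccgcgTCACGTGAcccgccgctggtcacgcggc
ATP6V1G1 promoter, chr9:114587690-114587737, plus strand: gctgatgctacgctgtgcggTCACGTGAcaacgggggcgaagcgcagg
ATP6V0D1 promoter, chr16:67481190-67481237, minus strand: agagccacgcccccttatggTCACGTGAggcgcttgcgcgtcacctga
LAMP1, MCOLN1 and GAA each held a second core in the same window. Of these 7 genes, GAA alone was past 1.5-fold in the Rg3 library, where it was lower (-0.72), beside 19.3% of all genes. MCOLN1 (0.78) and ATP6V0D1 (0.63) were higher in the TAM library, beside 17.4% of all genes. Log2 fold changes of the 7 ran from -0.72 to 0.53 with Rg3 and from 0.09 to 0.78 with TAM, and after trend removal from -0.10 to 0.41 and from -0.15 to 0.38. With library totals GAA (-0.58), MCOLN1 (0.57) and ATP6V0D1 (0.42) were within 1.5-fold, and ATP6V1G1 was higher with Rg3 (0.67), beside 31.4% of all genes. There LAMP1 (-0.09), GAA (-0.07) and GALNS (-0.12) lay below control with TAM. MCOLN1, CTSA (0.19), ATP6V1G1 (0.18) and ATP6V0D1 lay above it. A match of letters is a description of the window and not evidence of binding in these cells.

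In the Rg3 library 8 of the 51 members compared were higher than in control, 10 were lower and 33 lay within 1.5-fold, with log2 fold changes from -1.04 to 1.36. These shares, 15.7% higher and 19.6% lower, stand beside 25.0% higher and 19.3% lower among the 16487 genes compared. The 8 higher were LAMP2, SCARB2, FUCA1, NEU1, ATP6V1A, ATP6V1C1, ATP6V1D and ATP6V0A2. The 10 lower were TFEB, CTSB, CTSD, CTSH, GAA, MAN2B1, NAGLU, ARSA, SGSH and the readthrough name ATP6V1G2-DDX39B. The median log2 fold change was -0.15 over the members and 0.04 over all genes compared, and with library totals the counts became 13 higher and 6 lower, beside 31.4% and 13.8% of all genes, with a median of -0.01. After trend removal 6 members were higher and 3 lower (11.8% and 5.88%), beside 8.46% and 10.6% of 14505 genes, with a median of 0.02. None of the 10 lower members was still past the limit. With the trend of the principal transcript 3 members were higher and 1 lower, beside 8.22% and 10.4% of all genes.

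In the TAM library 15 of 51 members were higher than in control, 4 were lower and 32 lay within 1.5-fold, with log2 fold changes from -1.39 to 1.28. The shares were 29.4% higher and 7.84% lower, beside 17.4% and 23.5% of the 16079 genes compared. The 15 higher were TFEB, CD63, MCOLN1, CTSC, CTSD, CTSL, NAGLU, NEU1, ARSA, SGSH, ATP6V1G2, ATP6V0B, ATP6V0C, ATP6V0D1 and ATP6V0E2. ATP6V1G2 (9 counts in control, 19 with TAM) passed the count minimum through the TAM library alone. With a minimum of 50 counts, which leaves it out, 14 members were higher. It is also among those higher after trend removal on either transcript. The 4 lower were MITF, LAMP2, CTSH and IDS. The median was 0.27 over the members and -0.02 over all genes compared. With library totals 8 members were higher and 6 lower, beside 9.80% and 32.6% of all genes, and the median was 0.06 over members and -0.23 over all genes. After trend removal 10 were higher and 1 lower (19.6% and 1.96%), beside 13.2% and 16.0% of 14226 genes, with a median of 0.23. With the trend of the principal transcript 5 were higher and 1 lower, beside 12.8% and 15.7% of all genes.

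**Figure D2:**
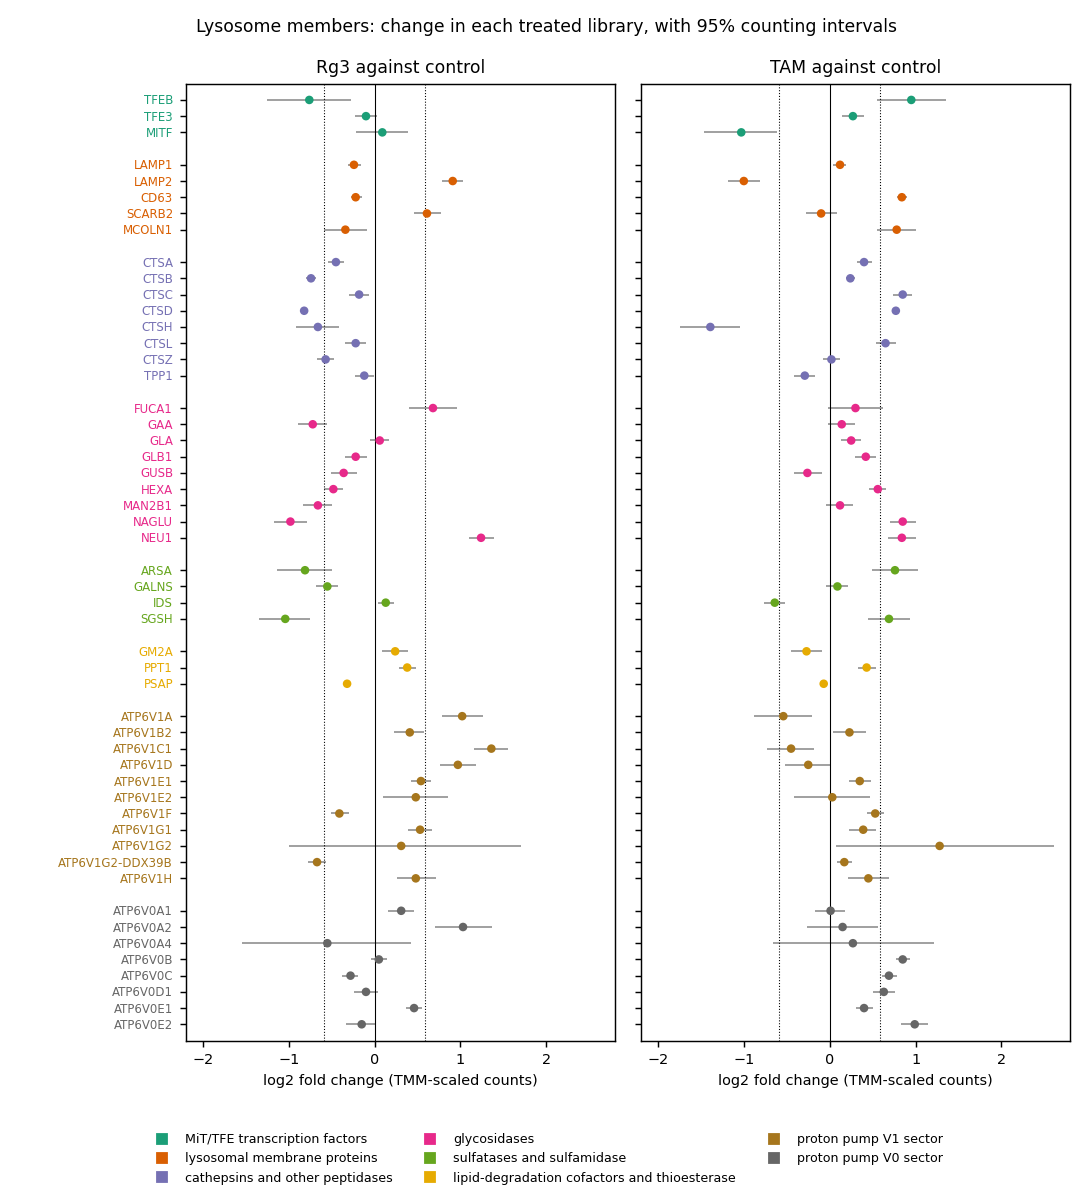
Log2 fold change of the 51 members compared in the Rg3 library (left) and the TAM library (right) against the control library, by TMM-scaled counts. Bars are exact 95% counting intervals, dotted lines mark 1.5-fold, and colours mark roles. LAMP2 lies right of the dotted line with Rg3 (0.91) and left of it with TAM (-1.00), and NEU1 lies right of it in both panels (1.24 and 0.84).

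The MiT/TFE factors differed among themselves. TFEB (chr6:41683978-41736259, minus strand, GRCh38) had 85 counts in control, 63 with Rg3 and 142 with TAM. It was thus lowest with Rg3 and highest with TAM, with a log2 fold change of -0.76 (-1.25 to -0.27) for Rg3 and 0.95 (0.55 to 1.35) for TAM, and trend-removed values of -0.27 and 0.59. TFE3 (chrX:49028726-49043486) had 911, 1065 and 953 counts and lay within 1.5-fold in both treated libraries (-0.10 and 0.27), with both signs turned after trend removal (0.46 and -0.01). It had the highest level per length of the 3 factors in each library, 23.2 in control beside 3.14 for TFEB and 2.89 for MITF. MITF, known as the factor of pigment cells, had 160, 213 and 68 counts and was lower in the TAM library, by a log2 fold change of -1.03 (-1.46 to -0.61), with -0.53 after trend removal.

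Of the membrane proteins, LAMP2 (chrX:120427827-120469365), a heavily glycosylated protein of the lysosome's limiting membrane that also takes part in autophagy, stood furthest from control in both libraries. It had 806 counts in control, 1894 with Rg3 and 350 with TAM. These counts were high with Rg3 and low with TAM, at log2 fold changes of 0.91 (0.79 to 1.03) and -1.00 (-1.18 to -0.81). LAMP2 had the lowest GC content of the 55 members, 37.7%, and its values were 0.07 and -0.49 after trend removal. LAMP1, its paralog and the other main glycoprotein of this membrane, had 2889, 3078 and 2718 counts and lay within 1.5-fold throughout, at -0.24 with Rg3 and 0.12 with TAM. SCARB2, the receptor that carries glucocerebrosidase to lysosomes, had 525, 1007 and 426 counts and was higher with Rg3 (0.61, interval 0.46 to 0.77), at 0.06 after trend removal. CD63 had 3639, 3923 and 5646 counts and MCOLN1, a calcium-permeable channel of the lysosomal membrane, had 265, 262 and 394. Both were higher with TAM, CD63 at 0.84 (0.78 to 0.90) and MCOLN1 at 0.78 (0.55 to 1.01), and both were within 1.5-fold after trend removal, at 0.47 and 0.34.

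Enzymes that cut proteins lay below control in the Rg3 library in 8 of 8 cases, beside 7955 of 16487 genes. Their values ran from -0.82 to -0.12 with a median of -0.51, but 1 came out above 0 with library totals (TPP1). After trend removal 1 was above 0 (CTSA), and the median was -0.13. Past 1.5-fold, 3 of 8 were lower, CTSB, CTSD and CTSH (37.5%, beside 19.3% of all genes). None of these 3 was past it after trend removal. The 1 then lower was CTSC (12.5%, beside 10.6%), which moved from -0.18 to -0.97. On the principal transcript CTSC lay at -0.56 and 0 of 8 were lower, beside 10.4% of all genes. CTSD (chr11:1752752-1764573, minus strand) had 10132 counts in control, 7222 with Rg3 and 14975 with TAM, which made it low with Rg3 (-0.82, interval -0.86 to -0.77) and high with TAM (0.77, 0.73 to 0.81). Its trend-removed values were -0.15 and 0.30, and 60.6% of its 50-base stretches also occur in an overlapping annotated transcript. CTSB, the cysteine protease cathepsin B, had 6169, 4632 and 6304 counts. It was lower with Rg3 (-0.74, -0.80 to -0.68), with a trend-removed value of -0.49, and lay at 0.24 with TAM. CTSH, an aminopeptidase of the cathepsin family (chr15:78921058-78949574, minus strand), had 284, 225 and 94 counts. The control library was highest and the TAM library lowest, with log2 fold changes of -0.66 (-0.92 to -0.41) for Rg3, -0.40 after trend removal, and -1.39 (-1.74 to -1.05) for TAM. This TAM value was the lowest of the 51 members compared, also after trend removal, at -1.70. CTSC, cathepsin C, which activates serine proteases of immune cells (chr11:88293592-88337787, minus strand), had 1104, 1224 and 1720 counts. It was high with TAM alone, at 0.85 (0.74 to 0.96), and stayed past 1.5-fold there after trend removal, at 1.57 with the longest annotated transcript and 0.88 with the principal transcript, which is shorter. CTSL, another cysteine protease of this family, had 1077, 1158 and 1467 counts and was higher with TAM (0.65, 0.54 to 0.77), with 0.37 after trend removal. The remaining CTSA, the protective protein that holds NEU1 in its active complex, CTSZ, a carboxypeptidase, and TPP1, a tripeptidyl peptidase, lay within 1.5-fold, from -0.57 to -0.12 with Rg3 and from -0.29 to 0.40 with TAM.

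Members with an E-box but no CLEAR core in their windows were ATP6V0B, ATP6V0E2, CD63, CTSD and NEU1. Those of CTSD and NEU1 are shown as examples, in capitals with their surroundings.
CTSD promoter, chr11:1763949-1763994, minus strand: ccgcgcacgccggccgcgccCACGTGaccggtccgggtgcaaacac
NEU1 promoter, chr6:31862922-31862967, minus strand: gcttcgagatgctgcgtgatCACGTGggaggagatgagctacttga

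Among the glycosidases, NEU1 (chr6:31857659-31862906, minus strand), the sialidase that removes terminal sialic acids, was higher in both treated libraries. It had 531 counts in control, 1574 with Rg3 and 823 with TAM. Both treated libraries were above control, and the log2 fold change was 1.24 (1.10 to 1.39) with Rg3 and 0.84 (0.68 to 1.00) with TAM. After trend removal the values were 1.40 and 0.89, and with the principal transcript 1.59 and 0.51. FUCA1, the fucosidase, had 162, 325 and 173 counts and was higher with Rg3 (0.68, 0.40 to 0.96, and 0.59 after trend removal). NAGLU, which cuts N-acetylglucosamine from heparan sulfate, had 573, 364 and 894 counts. It was low with Rg3 (-0.98, -1.17 to -0.79) and high with TAM (0.85, 0.70 to 1.00), with trend-removed values of -0.29 and 0.43. GAA, the acid glucosidase that degrades glycogen, had 646, 493 and 616 counts, and MAN2B1, an acid mannosidase, had 686, 543 and 644. Both were lower with Rg3, at -0.72 and -0.66, and both were near 0 after trend removal, at -0.02 and -0.11. The other 4, the galactosidases GLA and GLB1, the glucuronidase GUSB and the hexosaminidase subunit HEXA, lay within 1.5-fold, from -0.48 to 0.06 with Rg3 and from -0.26 to 0.56 with TAM. HEXA, whose product degrades ganglioside GM2, had 1454, 1305 and 1855 counts and values of -0.67 and 1.03 after trend removal with the longest transcript, and -0.40 and 0.79 with the principal one.

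Among the sulfatases, SGSH and ARSA were past 1.5-fold in both treated libraries, in opposite directions. SGSH, the sulfamidase of heparan sulfate degradation, had 251 counts in control, 153 with Rg3 and 351 with TAM. ARSA, the arylsulfatase that desulfates sulfatide, had 189, 135 and 277. Both were low with Rg3, SGSH at -1.04 (-1.34 to -0.75) and ARSA at -0.81 (-1.14 to -0.49), and both were high with TAM, at 0.69 (0.45 to 0.93) and 0.76 (0.49 to 1.03). Trend-removed values were -0.48 and 0.65 for SGSH and -0.10 and 0.29 for ARSA, which has the highest GC content of the members, 66%. On the principal transcript the SGSH values were -0.42 and 0.34. With library totals SGSH (0.48) and ARSA (0.55) were within 1.5-fold in the TAM library. IDS, the iduronate sulfatase, had 1528, 2101 and 848 counts and was lower with TAM (-0.64, -0.77 to -0.52), a difference of 0.02 after trend removal. GALNS, a sulfatase of keratan sulfate, had 1057, 905 and 973 counts and lay within 1.5-fold. Of the lipid-degradation cofactors and thioesterase, no member was past 1.5-fold in either library. PSAP, at 32187, 32347 and 26548 counts, differed from control by -0.32 (-0.34 to -0.30) with Rg3 and -0.07 (-0.10 to -0.05) with TAM, or 0.04 and -0.34 after trend removal. PPT1, the thioesterase that removes palmitate from proteins, had values of 0.38 and 0.43, and GM2A, the activator protein of ganglioside GM2 degradation, 0.24 and -0.27.

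Of the V1 sector, 3 of 11 names compared were higher in the Rg3 library (27.3%, beside 25.0% of all genes). The 1 lower was the readthrough name ATP6V1G2-DDX39B (9.09%, beside 19.3%). Above 0 were 9 of 11, beside 8532 of 16487 genes, with a median of 0.48. With library totals 7 were higher and 0 lower, beside 31.4% and 13.8% of all genes, with a median of 0.62. After trend removal 2 were higher and 0 lower, beside 8.46% and 10.6% of all genes, with a median of 0.25. There 8 of 11 were above 0, beside 7178 of 14505 genes. ATP6V1C1, a subunit of the stator that holds the catalytic head, had 286 counts in control, 919 with Rg3 and 181 with TAM. It had the highest log2 fold change of the members with Rg3, 1.36 (1.16 to 1.55), and stayed past 1.5-fold after trend removal, at 0.65, or 0.61 with the principal transcript. ATP6V1A, the catalytic subunit that binds ATP, had 203, 517 and 121 counts. It too was highest with Rg3, at 1.02 (0.79 to 1.26), but lay at 0.35 after trend removal. ATP6V1D, a subunit of the rotor shaft (chr14:67294371-67360265, minus strand), had 267, 654 and 195 counts, with 0.97 (0.76 to 1.18) for Rg3 and 0.65 after trend removal. Each of these 3 was below control in the TAM library, at -0.45, -0.54 and -0.25, all within 1.5-fold, and ATP6V1C1 came out above 0 after trend removal (0.18). ATP6V1E1, ATP6V1E2, ATP6V1G1, ATP6V1H and ATP6V1B2 lay between 0.41 and 0.54 with Rg3 and between 0.03 and 0.45 with TAM. ATP6V1F, a small subunit of the rotor, lay below control with Rg3, at 1514, 1433 and 1897 counts and log2 fold changes of -0.41 and 0.53. ATP6V1G2 passed the count minimum against control through the treated libraries alone, with 9, 14 and 19 counts, and its value of 1.28 with TAM has an interval of 0.07 to 2.61, with 1.09 after trend removal. The readthrough name ATP6V1G2-DDX39B (1980, 1562 and 1936 counts, -0.67 with Rg3 and -0.50 after trend removal) shares 97.6% of its 50-base stretches with other genes, mainly the RNA helicase gene DDX39B, so these reads cannot be assigned to the pump.

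Of the V0 sector, 4 of 8 subunits compared were higher in the TAM library and 0 lower (50% and 0%, beside 17.4% and 23.5% of all genes), with a median of 0.52. With library totals 2 were higher, beside 9.80% of all genes, with a median of 0.31. After trend removal 2 were higher, ATP6V0E2 and ATP6V0A2, beside 13.2% of all genes, with a median of 0.37. On the principal transcript 1 was higher, ATP6V0A2 (0.79), beside 12.8% of all genes. ATP6V0A2 was not among the first 4, at 0.15 by TMM-scaled counts. None of those 4 remained past 1.5-fold on the principal transcript. ATP6V0B, a proteolipid of the proton-passing ring, had 1951 counts in control, 2532 with Rg3 and 3046 with TAM. ATP6V0C, the main proteolipid of that ring, had 1925, 1982 and 2698, and 87.3% of its stretches are shared with overlapping annotated transcripts. Both were high with TAM alone, at 0.85 (0.77 to 0.93) and 0.69 (0.61 to 0.78), and within 1.5-fold after trend removal, at 0.49 and 0.17. ATP6V0D1, which couples the ring to the rotor, had 830, 971 and 1114 counts and a log2 fold change of 0.63 with TAM, with 0.36 after trend removal. ATP6V0E2, a small membrane subunit, had 510, 575 and 877 counts and 0.99 (0.83 to 1.15) with TAM, with 1.24 after trend removal on the longest transcript and 0.52 on the principal one. Its paralog ATP6V0E1 had 1683, 2905 and 1930 counts and lay within 1.5-fold, at 0.46 and 0.40. Of the large a subunits, which form the proton path and set where the pump resides, ATP6V0A2 had 105, 269 and 101 counts and was higher with Rg3, at 1.03 (0.70 to 1.37) and 0.59 after trend removal. ATP6V0A1 had 573, 891 and 499 counts and values of 0.31 and 0.01. ATP6V0A4 had only 21, 18 and 22 counts. In the Rg3 library the V0 median was -0.03, which turned to 0.11 with library totals and 0.37 after trend removal, and no direction is given for it.

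Fold changes of the members followed base composition as those of other genes did. Across the 49 members with at least 50 counts, Spearman's rho of the log2 fold change with GC content was -0.77 with Rg3 and 0.40 with TAM, and across all such genes it was -0.81 (11692 genes) and 0.51 (11117 genes). These points share their libraries and depth and are not independent replicates, so that the values describe the libraries. GC content of the members ran from 37.7% to 66% with a median of 51.6%, and the median was 45.2% for the V1 subunits compared, 51.3% for V0, 53.1% for the peptidases and 58.8% for the sulfatases. The part of base composition in any single difference was not tested.

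**Figure D3:**
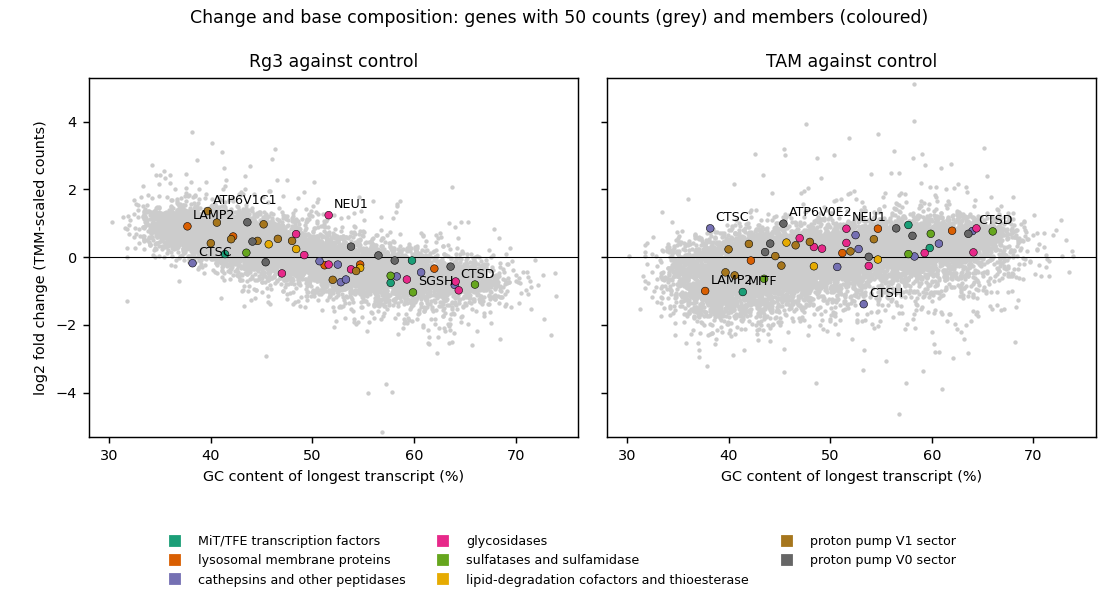
Log2 fold change by TMM-scaled counts against the GC content (%) of the longest annotated transcript, for genes that reach 50 counts (grey) and members (coloured by role), with Rg3 on the left and TAM on the right. The cloud falls from left to right with Rg3 (rho -0.81) and rises with TAM (rho 0.51), with NEU1 (1.24) in its upper margin with Rg3 and CTSH (-1.39) in its lower margin with TAM.

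Of the calls against control, NEU1, ATP6V1C1, ATP6V1D, FUCA1 and ATP6V0A2 remained higher with Rg3 after trend removal, 5 of 8, and ATP6V0A1 came in at 0.60. None of the 10 lower remained, while CTSC (-0.97), HEXA (-0.67) and ATP6V0A4 came in. With TAM, 6 of the 15 higher remained, TFEB, CTSC, NEU1, SGSH, ATP6V1G2 and ATP6V0E2, and CTSH was the 1 of 4 lower that did. Of these, ATP6V1G2 (9 counts in control, 19 with TAM) was compared through the TAM library alone. HEXA (1.03), PPT1 (0.65), ATP6V1B2 (0.96) and ATP6V0A2 (0.73) came in. When the trend was fitted on the principal transcript instead, the calls that remained with Rg3 were those of NEU1, ATP6V1C1 and ATP6V1D. With TAM they were those of CTSC, ATP6V1G2 and CTSH. On this transcript ATP6V0A4 (-0.64) came in as lower with Rg3. It had 21 counts in control and 18 with Rg3, and its interval before trend removal, -1.54 to 0.43, spans 0. HEXA (0.79), PPT1 (0.75) and ATP6V0A2 (0.79) came in as higher with TAM.

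**Figure D4:**
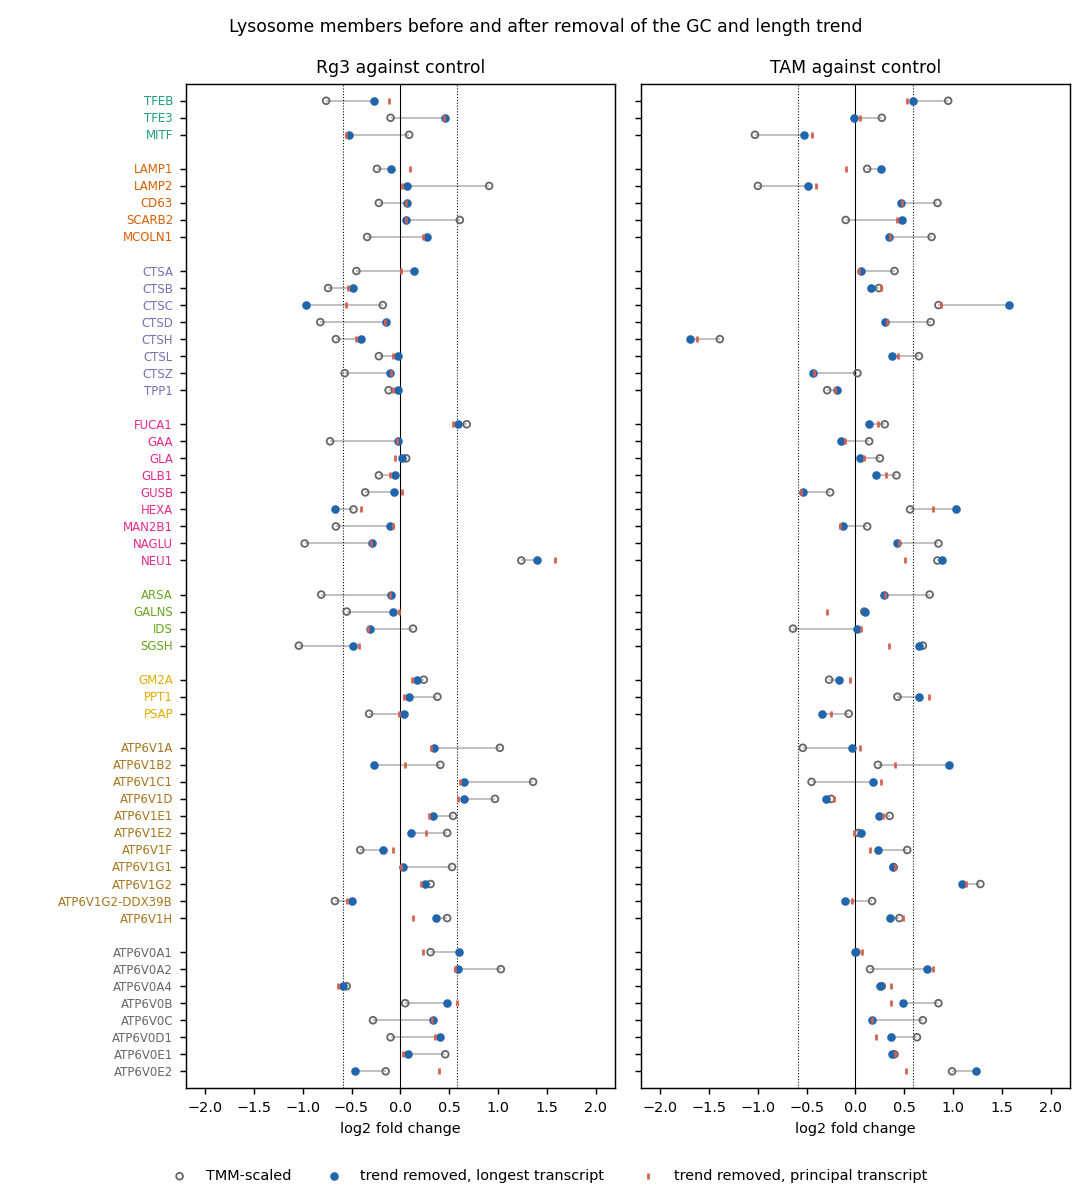
Log2 fold change of the 51 members compared before (open circles) and after trend removal, with GC content and length taken from the longest (filled circles) or the principal transcript (vertical ticks), for Rg3 (left) and TAM (right) against control. Dotted lines mark 1.5-fold. LAMP2 moves from 0.91 to 0.07 with Rg3, while NEU1 stays right of the dotted line at 1.40 and CTSH stays left of it with TAM at -1.70.

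Set directly against each other, the TAM library was higher than the Rg3 library for 25 of 51 members and lower for 9, or 49% and 17.6%, beside 30.0% and 35.1% of 16493 genes. With library totals the split was 14 and 14, beside 18.8% and 45.3% of all genes. After trend removal it was 10 and 3 (19.6% and 5.88%), beside 19.4% and 19.2% of 14496 genes, and on the principal transcript 9 and 3, beside 18.5% in each direction. The 25, 10 and 9 higher each include ATP6V1G2 and ATP6V0A4. Their intervals before trend removal, -0.10 to 2.08 and -0.14 to 1.81, span 0. The 2 agents differ in structure and were given at different doses, 50 and 200 μM. The largest differences toward TAM were NAGLU at 1.83 (1.65 to 2.01), SGSH at 1.73 (1.45 to 2.01), TFEB at 1.71 (1.27 to 2.16), CTSD at 1.58 (1.54 to 1.63) and ARSA at 1.57 (1.27 to 1.88). Toward Rg3 they were LAMP2 at -1.90 (-2.07 to -1.74), ATP6V1C1 at -1.81 (-2.05 to -1.58), ATP6V1A at -1.56 (-1.86 to -1.27) and ATP6V1D at -1.21 (-1.45 to -0.98). After trend removal NAGLU stood at 0.71, SGSH at 1.11, TFEB at 0.86 and ATP6V1D at -0.94, all still past 1.5-fold, and CTSD at 0.45, ARSA at 0.38, LAMP2 at -0.55, ATP6V1C1 at -0.45 and ATP6V1A at -0.38 were within it. CTSC and HEXA were higher with TAM by 1.02 and 1.04, and by 2.54 and 1.70 after trend removal, or 1.45 and 1.19 on the principal transcript.

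Other genes of the organelle were read from 4 fixed lists with 106 genes, whose counts stand beside 25.0% higher and 19.3% lower among all genes with Rg3 and 17.4% and 23.5% with TAM. With library totals the shares of all genes were 31.4% and 13.8% with Rg3, and 9.80% and 32.6% with TAM. After trend removal they were 8.46% and 10.6% with Rg3, and 13.2% and 16.0% with TAM. Of other lysosomal hydrolases and cofactors, 6 of 34 compared were higher and 7 lower with Rg3 (17.6% and 20.6%), or 8 and 5 with library totals. In the TAM library 3 of them were higher and 5 lower (8.82% and 14.7%), or 2 and 10 with library totals. After trend removal the counts were 4 and 4 with Rg3, and 3 and 3 with TAM. Membrane and transport proteins outside the members had 9 of 30 higher and 6 lower in the Rg3 library (30% and 20%), and 5 higher and 6 lower in the TAM library (16.7% and 20%). Their counts were 13 and 5, and 1 and 10, with library totals, and 4 and 1, and 2 and 2, after trend removal. OSTM1, the partner of the lysosomal chloride and proton exchanger CLCN7, was the highest of them with Rg3, at 431, 1414 and 415 counts and 1.39 (1.23 to 1.55), with 0.52 after trend removal. TPCN2, a cation channel of endosomes and lysosomes (321, 180 and 281 counts, -1.16), and ACP2, the lysosomal acid phosphatase (436, 253 and 546, -1.11), were the lowest with Rg3, at -0.99 and -0.64 after trend removal. With TAM the peptidase DPP7 (818, 586 and 1560 counts, 1.14), the glycoprotein CD68 (615, 426 and 1100, 1.05) and the hyaluronidase HYAL2 (1255, 1004 and 1973, 0.86) were highest, at 0.63, 0.66 and 0.62 after trend removal. CD68 shares 92.6% of its stretches with an overlapping transcript. GNPTAB, the enzyme that starts the mannose 6-phosphate tag on hydrolases, had 254, 542 and 96 counts and was lower with TAM at -1.20 (-1.55 to -0.85), with -0.67 after trend removal.

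Accessory and assembly factors of the pump had 7 of 15 higher and 3 lower in the Rg3 library (46.7% and 20%, beside 25.0% and 19.3% of all genes), and 1 higher and 6 lower in the TAM library (6.67% and 40%, beside 17.4% and 23.5%). After trend removal the counts were 0 and 1 with Rg3, beside 8.46% and 10.6% of all genes, and 2 and 0 with TAM, beside 13.2% and 16.0%. Library totals gave 7 and 3 with Rg3, beside 31.4% and 13.8% of all genes, and 0 and 7 with TAM, beside 9.80% and 32.6%. DMXL1, part of the complex that assembles the pump, had 170, 396 and 62 counts and was lower with TAM by -1.25 (-1.69 to -0.82), with -0.30 after trend removal. TCIRG1, which encodes a further a subunit under a name outside the rule, had 505, 362 and 567 counts, with -0.81 for Rg3 and 0.37 for TAM, or -0.09 and -0.03 after trend removal.

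The list named for mTORC1 docking and MiT/TFE control also holds the autophagy genes SQSTM1, UVRAG and WIPI1. It had 10 of 23 compared higher and 2 lower in the Rg3 library (43.5% and 8.7%, beside 25.0% and 19.3% of all genes), with a median of 0.36. After trend removal 9 were higher and 1 lower, beside 8.46% and 10.6% of all genes, with a median of 0.44. Both counts of higher genes include GPNMB, which had 5, 14 and 1 counts and was compared through the Rg3 library alone, and without it they were 9 and 8 of 22, with medians of 0.34 and 0.39. Both also include WIPI1 (0.66, and 0.65 after trend removal). UVRAG (0.68) is in the first count alone, and SQSTM1 (0.28, and 0.78 after trend removal) in the second alone. RRAGD, a Rag GTPase of the group that brings mTORC1 to lysosomes, had 40 counts in control, 158 with Rg3 and 16 with TAM. It was high with Rg3 at 1.66 (1.15 to 2.19), the largest value of the list, and at 1.09 after trend removal, while with TAM it lay at -1.12 (-2.05 to -0.25), or -0.63 after trend removal. FNIP1, the partner of folliculin, had 108, 369 and 34 counts. It was high with Rg3, at 1.45 (1.13 to 1.77), and low with TAM, at -1.46 (-2.06 to -0.89), with 0.70 and -0.72 after trend removal. LAMTOR2, a subunit of the Ragulator scaffold, had 747, 491 and 1130 counts and was low with Rg3, at -0.93 (-1.10 to -0.77), with -0.77 after trend removal. With TAM the list had 3 of 22 higher and 5 lower (13.6% and 22.7%, beside 17.4% and 23.5%) with a median of -0.32. The list had 1 and 10 with library totals (median -0.53), beside 9.80% and 32.6% of all genes. After trend removal it had 0 and 4 (median -0.04), beside 13.2% and 16.0%.

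**Figure D5:**
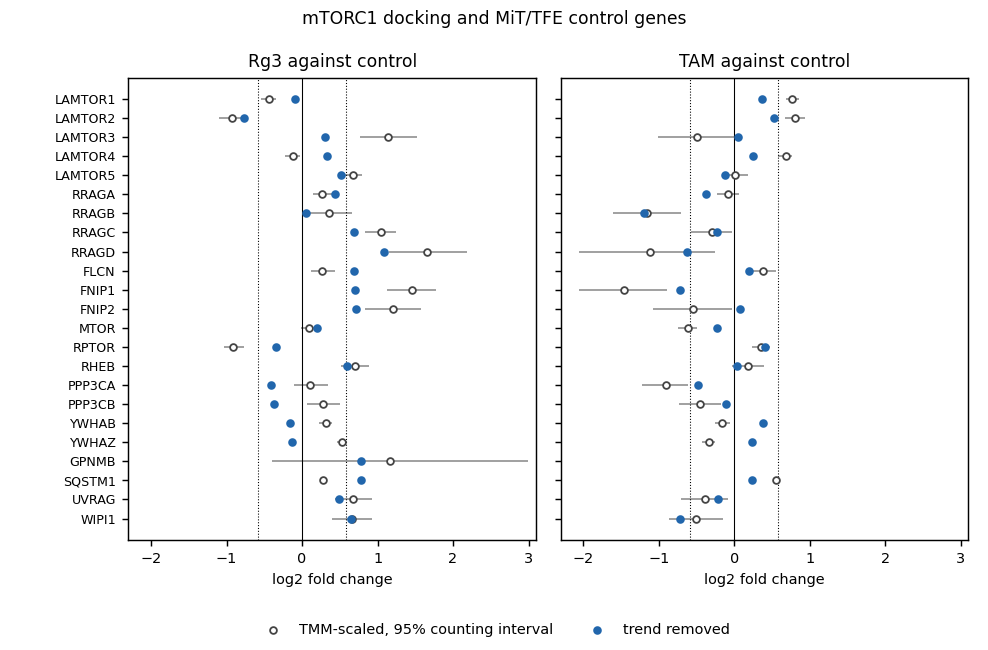
Log2 fold change of the genes of mTORC1 docking and MiT/TFE control in the Rg3 library (left) and the TAM library (right) against control, by TMM-scaled counts with exact 95% counting intervals (open circles) and after trend removal (filled circles). Dotted lines mark 1.5-fold, and GPNMB was not compared with TAM. SQSTM1, UVRAG and WIPI1 of this list are autophagy genes. RRAGD lies right of the dotted line with Rg3 on both scales (1.66 and 1.09), and FNIP1 lies on opposite sides in the 2 panels (1.45 and -1.46).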

How the data were processed

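RNA-seq counts of 3 PANC-1 libraries, 1 each for control, Rg3 and TAM, were analysed, with groups, doses and times from the sample labels. Total RNA was extracted with TRIzol and sequenced on the Ion Proton. The authors checked reads with FAST-QC, aligned them with TopHat and made a table of raw, unnormalized read counts for 51136 gene symbols. The submitters' processing notes name the build GRCh38. The annotation, the counting tool and the use of strand are not given in the sources used here, so reads of overlapping genes on opposite strands may be mixed.

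From the deposited counts, TMM factors (edgeR 4.0.16, R 4.3.3) were computed over the 3 libraries, and ratios, exact 95% intervals and medians in Python 3.11.15. Counts under 3 were raised to 3. The limits of 1.5 and 0.67 follow the study's methods, whose Limma criterion cannot be fitted with 1 library per condition. Coordinates, GC content and lengths came from GENCODE 29 (GRCh38), where all 55 members matched, as did 88% of genes compared for Rg3, 88.5% for TAM and 87.9% for TAM against Rg3. The trend was a loess fit (span 0.3) on genes with at least 50 counts. Shared reads were judged by 50-base stretches found in transcripts of other genes, which 29 members have, 10 of them over 10%. Named with all counts were the MiT/TFE factors, LAMP1, LAMP2, CTSB, CTSD and PSAP, and per comparison and role up to 3 members past 1.5-fold each way with at least 50 counts, with 3 each way per treatment over the context lists. Further members were named as examples after their values were seen. The members and lists were chosen with earlier results of these data known. For 1 gene of the context lists no value is reported here. The scaling, intervals and trend removal were tested on simulated data. Alternatives were library totals, DESeq2 1.42.0 size factors, minimums of 1 and 50 counts, a 2-fold limit, leaving out members with shared stretches, the exact binomial test added to the fold, and edgeR's exact test with an assumed coefficient of variation. The trend on the principal transcript was added after seeing the data.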

Additional observations from a re-analysis of the deposited data

Results flagged for a closer look

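In 6 members both treated libraries were past 1.5-fold from control in opposite directions, a difference that could not be tested with 1 library per condition. The share of all genes with such a pattern is not given, so these 6 are not set apart from other genes. Over all genes with at least 50 counts, fold changes ran with GC content at rho -0.81 with Rg3 and 0.51 with TAM. The log2 fold change of TAM against Rg3 was 1.71 for TFEB, 1.58 for CTSD, 1.83 for NAGLU, 1.57 for ARSA and 1.73 for SGSH, each below control with Rg3 and above it with TAM, and -1.90 for LAMP2, which was higher with Rg3 and lower with TAM. The GC content of the first 5 ran from 57.7% to 66% and that of LAMP2 was 37.7%. After removal of the GC and length trend these differences of TAM against Rg3 were 0.86, 0.45, 0.71, 0.38, 1.11 and -0.55. Against control, the trend-removed values with Rg3 were -0.27, -0.15, -0.29, -0.10, -0.48 and 0.07, all within 1.5-fold. Those with TAM were 0.59, 0.30, 0.43, 0.29, 0.65 and -0.49. None of the 6 thus kept the pattern after trend removal. With library totals CTSD (0.56), ARSA (0.55) and SGSH (0.48) were within 1.5-fold in the TAM library.

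Reads were also counted on names that the member rule drops. ATP6V1B1-AS1 had 7 counts in control, 5 with Rg3 and 17 with TAM, and the pseudogene ATP6V1E1P3 had 14, 35 and 12. Both were set beside the control library alone, without a test.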

How the results depend on the processing

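No paired analysis was possible because there was only 1 library for each condition, and for the same reason no library could be left out. DESeq2 size factors, minimums of 1 and of 50 counts and the added binomial test moved no count of members by 1.5 times or more. Counts higher and lower were 13 and 6 with library totals for Rg3 against control (median -0.01). They were 6 and 3 with the trend removed (median 0.02), 3 and 1 with the trend of the principal transcript (0.02), 3 and 3 without members that have a shared stretch (0.05), and 4 and 1 at 2-fold. For TAM against control they were 8 and 6 with library totals (0.06), 10 and 1 with the trend removed, 5 and 1 on the principal transcript, 3 and 2 without shared stretches, and 1 and 2 at 2-fold. For TAM against Rg3 they were 14 and 14 with library totals (0.02), 10 and 3 with the trend removed (0.06), 9 and 3 on the principal transcript (0.12), 9 and 4 without shared stretches (0.12), and 10 and 5 at 2-fold. Leaving out shared stretches leaves fewer members, and the 2-fold limit is stricter by construction. edgeR's exact test with an assumed coefficient of variation of 0.4 called 0 members in every comparison, and with 0.2 it called 0 against control and 10 and 4 for TAM against Rg3. Of differences past 1.5-fold, signs turned on removal of the trend, given here for the longest and the principal transcript, for IDS with TAM (0.02, 0.06) and for 12 members in TAM against Rg3. These were MITF (0.01, 0.12), SCARB2 (0.42, 0.38), CTSA (-0.09, 0.03), CTSZ (-0.33, -0.32), GAA (-0.15, -0.10), MAN2B1 (-0.03, -0.10), GALNS (0.16, -0.28), IDS (0.33, 0.40), ATP6V0A2 (0.15, 0.23), ATP6V0B (0.01, -0.22), ATP6V0C (-0.17, -0.16) and ATP6V0D1 (-0.06, -0.15). Within 1.5-fold, signs turned on either transcript for 14 members with Rg3, among them MITF (0.09 to -0.53), MCOLN1 (-0.34 to 0.27) and ATP6V0C (-0.28 to 0.33), for 12 with TAM and for 9 in TAM against Rg3. The cause was not tested. Members under 50 counts, such as ATP6V1G2 and ATP6V0A4, are limited by depth.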
